A study of Mus musculus with 5 samples.

Results

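The genes described here are 9 transporters through which the hepatocyte moves bile acids, other organic anions and, for Abcb4, the phospholipid of bile. They are 4 uptake carriers of the blood-facing membrane (Slc10a1, Slco1a1, Slco1a4, Slco1b2), 3 pumps of the bile-facing canalicular membrane (Abcb11, Abcc2, Abcb4) and 2 export pumps of the blood-facing membrane (Abcc3, Abcc4). They were chosen by name, as a family, from the 31053 genes in the matrices, and all 9 were found. The data are 5 droplet single-cell RNA libraries (10x v3 kit) of C57BL/6J mouse liver, 1 per group. The groups were postnatal day 14 (P14), an adult control, and 3 groups of operated adults, taken 24 h, 48 h or 96 h later. The operation was a partial hepatectomy (PHx), which takes away the larger share of the liver so that the remnant regrows. Adults were 8 weeks old. All groups shared the strain, a perfusion to free the cells and a kit that removes dead cells. The text calls the operated libraries 24 h, 48 h and 96 h, and lists their values in time order. The labels name no transgene, sex or number of animals. They also disagree on the control, which its title and source call an adult control while the treatment protocol counts it among the operated animals, and a code in its description differs from the code shared by the other 4 libraries.

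Bile acids circulate between liver and gut. Slc10a1 (NTCP) takes conjugated bile acids up from portal blood with sodium, and the Slco carriers (OATPs) take up unconjugated bile acids, bilirubin, hormones and drugs without sodium. Abcb11 (BSEP) pumps bile salts into bile, Abcc2 (MRP2) pumps conjugated bilirubin and glutathione conjugates, and Abcb4 (MDR2) moves phosphatidylcholine into the outer leaflet, where bile salts carry it off. Abcc3 and Abcc4 (MRP3 and MRP4) return bile acids and conjugates to blood and are known to be raised when bile flow is blocked. The receptor FXR, encoded by Nr1h4, senses bile acids and is known to raise Abcb11 and to lower Slc10a1 and Cyp7a1 through SHP, encoded by Nr0b2.

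A barcode was taken as a hepatocyte when it had at least 5000 unique molecular identifiers (UMIs), 10 to 30% mitochondrial UMIs, and at least 1% of its UMIs from Alb, Apoa1 and Ttr. This gave 2106 hepatocytes in P14, 925 in the control, and 1170, 719 and 771 in the operated libraries, with median depths from 18527 to 38922.5 UMIs. Median mitochondrial shares ran from 20.6% in P14 to 26.0% at 96 h, and median shares of Alb, Apoa1 and Ttr from 2.10% at 24 h to 11.2% in P14. Library totals ran from 80927744 to 136110607 UMIs. All 8 hepatocyte markers were detected in every library, with a summed level from 45358 to 162077 CPM (UMIs scaled to 1000000 UMIs outside the 13 mitochondrial genes). Alb, Apoa1 and Ttr are among them and served to choose the cells, so their detection was fixed by the rule. Alb alone gave 104975 CPM of the highest sum, in P14. The others, Fabp1, Apoc3, Serpina1c, Ass1 and Cyp2e1, were not part of the rule. The 7 leukocyte markers summed to 8.90 to 29.0 CPM, the 7 endothelial markers to 9.45 to 19.1 CPM and the 7 macrophage markers to 0.595 to 6.83 CPM (Clec4f at 0 in the 48 h and 96 h libraries). The control was highest and P14 lowest in the leukocyte sum. The 5 cholangiocyte markers summed to 6.49 to 33.9 CPM, nearly all of it Sox9 (5.87 to 33.8 CPM), with Krt19 at 0 in every adult library. The 6 mesenchymal markers summed to 4.32 to 46.6 CPM with Col1a1 at 0 in all libraries, and Reln alone gave 45.6 CPM of the highest sum, in P14. The 6 erythroid markers summed to 124 to 761 CPM. Leaving out barcodes with 3 or more leukocyte or endothelial markers kept the number of members past 2-fold in all 6 comparisons below and moved none of 48 ratios by more than 0.05 (log2). The part of the other cell types was not tested. At most 3 hepatocytes of a library carried a barcode that was also a hepatocyte in another library.

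2 libraries stood apart. In the control, 68549 barcodes held at least 1000 UMIs against 5015 to 19508 elsewhere, and empty droplets held 1328 UMIs on average, 7.17% of the median hepatocyte depth, against 0.818 to 3.60% in the other 4 libraries. P14 hepatocytes carried Xist, the transcript of the inactive X chromosome, in 2105 of 2106 cells and a Y-linked transcript in 1, whereas 814 of 925 control hepatocytes and 1094 of 1170, 690 of 719 and 720 of 771 in the operated libraries carried a Y-linked transcript. In P14 against the adult control, age and sex therefore cannot be told apart. With 1 library per group no test was possible and none is given. Intervals are exact 95% Poisson or binomial intervals that cover counting error only. They leave out the spread between animals and, for levels, ratios and shares of UMIs, the spread between cells. Overlap or separation of intervals is given with this limit.

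Against the adult control, uptake carriers differed in both directions and 1 export pump, Abcc3, was far lower in P14. Slco1a1 was lower in all 4 other libraries, Slco1a4 was higher in 3 of them, Slc10a1 was lowest at 24 h, and Abcb11 was lowest at 48 h. A gene was counted when it reached 5 CPM in either library, and called past the fold at 2-fold or more on log2((CPM + 1)/(CPM + 1)). Abcc4 did not reach 5 CPM anywhere, so 8 of 9 members were counted. In P14, 1 member was past the fold upward and 2 downward, against 7.89% and 13.8% of all 9011 genes. At 24 h, 1 was higher and 2 lower, against 8.51% and 7.13% of 9028 genes. At 48 h, 0 were higher and 2 lower, against 8.3% and 7.63% of 9035 genes. At 96 h, 1 was higher and 0 lower, against 4.07% and 1.88% of 8890 genes. Counts this small say which members differed and set the family apart in nothing.

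The median ratio of the 8 members (log2 scale) was -0.26 in P14, -0.47 at 24 h, -0.84 at 48 h and -0.04 at 96 h. The median of all genes counted was -0.26, -0.00086, -0.08 and 0.04. At 48 h, 7 of 8 members lay below 0, and at 96 h 4 of 8 did. The share of all genes below 0 is not given, so these counts set the family apart in nothing. Scaling by TMM factors in place of library totals moved the P14 ratios by 0.34 and those of 96 h over 48 h by -0.10. In P14 this put Slc10a1 (0.10 in place of -0.24) and Slco1b2 (0.07 in place of -0.27) above 0. With Alb, Apoa1 and Ttr at 5% or more, Slco1b2 in P14 was at 0.36, with 47 barcodes left in the control. The member median moved with the cells taken. With 10 to 20% mitochondrial UMIs it was -0.42 in P14 and -0.72, -1.08 and -0.33 after PHx (all genes -0.24, -0.03, -0.08 and -0.04). With under 10% it was -0.07 in P14 and -1.09, -0.96 and -0.97 after PHx (all genes -0.24, -0.61, -0.56 and -0.45). With Alb, Apoa1 and Ttr at 5% or more it was -0.36 at 96 h (all genes 0.28). Ratios over the control share 1 control library, so they are given side by side and not set against each other.

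Several ratios moved with the mitochondrial range of the cells. Hepatocytes with 10 to 20% mitochondrial UMIs were few in the adults: 87 in the control and 181, 116 and 53 after PHx, against 933 in P14. Barcodes with under 10% mitochondrial UMIs (103 to 632 a library) were shallower, with median depths from 6076 to 9718 UMIs. They held the members at lower levels in all libraries. They met the same minimum of depth and of Alb, Apoa1 and Ttr, with fewer than 3 leukocyte and fewer than 3 endothelial markers. No further markers were checked in these barcodes, and whether they were intact hepatocytes was not tested. Free RNA weighed more in them in the control: the RNA of 1 empty droplet per barcode would give 18.7% of all their UMIs there, against 1.90 to 7.22% elsewhere, and 416 of the 523 control UMIs of Slco1b2, 130 of 170 of Slco1a1, 72.5 of 107 of Abcb11 and 41.4 of 61 of Abcc2. The median of all genes over the control was also lower in that set, at -0.61, -0.56 and -0.45 after PHx, and 34.4%, 31.4% and 23.2% of genes were past the fold downward. Ratios over the control from that set are given below with this limit. In that set the control was past the fold above all 3 operated libraries for Slco1a1 (-2.93, -2.41 and -1.71), Slco1b2 (-2.30, -3.00 and -2.45), Abcb11 (-1.86, -2.21 and -1.52) and Abcc2 (-1.16, -1.09 and -1.08). Slco1a4 was no longer past the fold there at 24 h (-0.15 in place of 1.36, from 7 control UMIs and 23 at 24 h) or at 96 h (0.33 in place of 1.70). Slc10a1 in P14 (0.74 in place of -0.24), Slco1a4 at 48 h (-0.53 in place of 0.14) and Abcc3 at 48 h (0.07 in place of -0.95) also turned, as did Abcc2 and Abcb4 in libraries named below. Slco1a1 kept its direction and its place past the fold at 24 h and 48 h under all 12 alternatives, and in P14 under all 13, though not in the non-cycling cells of the 48 h library.

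**Figure D1:**
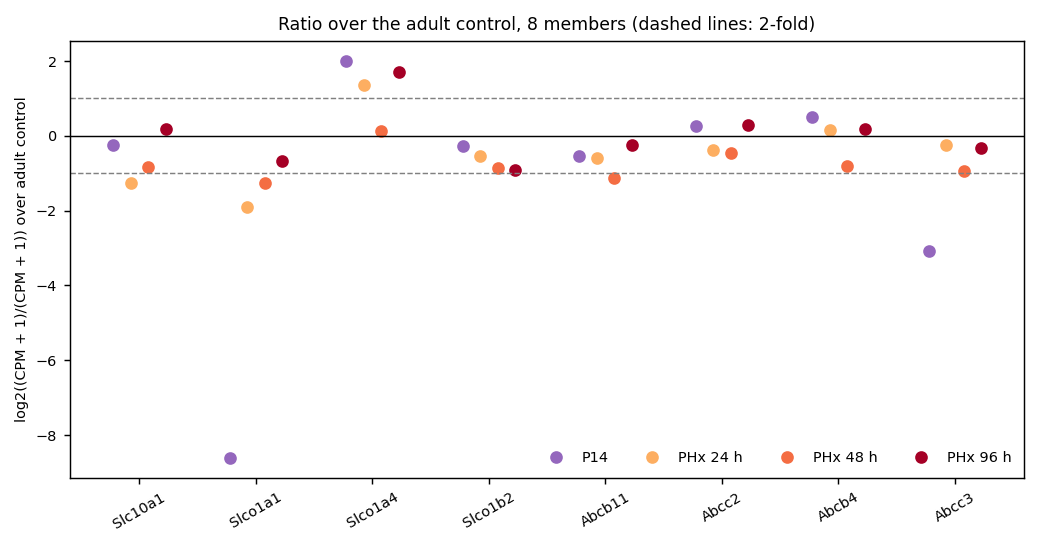
Ratio of each of 8 members over the adult control on the log2((CPM + 1)/(CPM + 1)) scale, 1 point per library, with dashed lines at 2-fold. Slco1a1 lies below 0 in all 4 libraries (-8.60 in P14), Slco1a4 lies above 1 in P14 and at 24 h and 96 h, and Abcc3 lies at -3.08 in P14.

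Slc10a1 (ENSMUSG00000021135, chr12:80953183-80968705, minus strand) is the main carrier of conjugated bile acids. Its level was 537 CPM in P14 (531 to 542), 634 CPM in the control (621 to 648), and 265 (258 to 272), 355 (347 to 364) and 724 CPM (709 to 738) after PHx. It was lowest a day after the operation and above the control at 96 h, and no neighbours in this order had overlapping intervals. At 24 h the control level was 2.40-fold higher (2.31 to 2.48), at 48 h 1.79-fold (1.73 to 1.84), and at 96 h the level was 1.14-fold that of the control (1.11 to 1.17). In cells with 10 to 20% mitochondrial UMIs the 96 h level was below the control (log2 ratio -0.18 in place of 0.19). When each cell was thinned to 5000 UMIs, 63.0% of hepatocytes at 24 h and 73.2% at 48 h had a Slc10a1 UMI, against 90.5% in the control and 91.3% at 96 h. Leukocyte barcodes had at least 5000 UMIs, under 10% of them mitochondrial and under 1% from Alb, Apoa1 and Ttr. They also held 3 or more leukocyte markers, and more of these than of any other non-hepatocyte class. The limit on Alb, Apoa1 and Ttr leaves out barcodes richest in these transcripts, so their shares may understate free RNA. They should lack Slc10a1, yet had such a UMI in 30.5% of the control, 3.15%, 2.28% and 13.7% after PHx and 8.74% in P14 at the same depth of 5000 UMIs.

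The 3 Slco genes lie in a stretch of chromosome 6: Slco1b2 (ENSMUSG00000030236) at chr6:141629518-141686646 on the plus strand, Slco1a4 (ENSMUSG00000030237) at chr6:141805440-141856199 and Slco1a1 (ENSMUSG00000041698) at chr6:141907282-141946962, both on the minus strand (GENCODE M21, build GRCm38). They differed in direction, so the 250 bases before each start site (RefSeq, GRCm38.p6) are shown to set them side by side. Capitals mark matches, with at most 1 base different, to 2 nuclear receptor elements searched on both strands, which overlap each other in none of these windows. An IR-1, the inverted repeat known as the FXR element, was searched as AGGTCANTGACCT, and a DR-1, the direct repeat bound by HNF4A and by PPARA with RXRA, as AGGTCANAGGTCA.
Slco1b2, chr6:141629268-141629517, plus strand: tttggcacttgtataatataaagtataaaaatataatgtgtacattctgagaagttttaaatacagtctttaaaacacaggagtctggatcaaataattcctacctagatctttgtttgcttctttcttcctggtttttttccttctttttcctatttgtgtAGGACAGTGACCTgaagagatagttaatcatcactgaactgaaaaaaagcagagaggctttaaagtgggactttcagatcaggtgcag
Slco1a4, chr6:141856221-141856470, minus strand: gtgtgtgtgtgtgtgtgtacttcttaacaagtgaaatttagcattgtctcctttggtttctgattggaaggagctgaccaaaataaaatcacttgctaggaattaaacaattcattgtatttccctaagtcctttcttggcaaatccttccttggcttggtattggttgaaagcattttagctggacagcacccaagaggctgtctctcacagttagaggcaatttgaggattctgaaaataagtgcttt
Slco1a1, chr6:141946963-141947212, minus strand: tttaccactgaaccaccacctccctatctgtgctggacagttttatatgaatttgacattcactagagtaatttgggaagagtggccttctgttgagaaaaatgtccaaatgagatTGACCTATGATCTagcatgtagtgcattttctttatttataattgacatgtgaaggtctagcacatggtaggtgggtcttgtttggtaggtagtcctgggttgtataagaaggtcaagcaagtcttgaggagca
The Slco1b2 window held an IR-1 match that began 88 bases before the start site, and the Slco1a1 window a DR-1 match on its opposite strand that began 134 bases before it. The Slco1a4 window held neither set of letters. Of 32851 windows of that length, 0.0791% held an IR-1 match (26 windows) and 0.484% a DR-1 match. These are matches of letters and were not tested as sites. Of the 50-base words in the last 500 bases of their transcripts, 0 were shared with another gene for each of the 3, so reads of the close Slco relatives can be told apart in this stretch.

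Slco1a1 (OATP1A1) is known as an adult and male-predominant carrier of the mouse liver. It was at 0.170 CPM in P14 (0.085 to 0.305, from 11 UMIs), 454 CPM in the control (443 to 466), and 122 (117 to 127), 188 (182 to 194) and 283 CPM (274 to 292) after PHx. The operated libraries stood in the order of time, all below the control, and P14 was close to none. The control level was 2668-fold that of P14 (1490 to 5347), 3.73-fold that of 24 h (3.55 to 3.91), 2.42-fold that of 48 h (2.32 to 2.52) and 1.61-fold that of 96 h (1.54 to 1.67). A Slco1a1 UMI was found in 0.142% of P14 hepatocytes, 80.5% of the control, and 37.5%, 52.3% and 59.1% after PHx. Of leukocyte barcodes, 49.8% of the control carried it, against 1.89%, 0.941% and 8.06% after PHx and 0 of 183 in P14 (exact upper limit 2.00%). With free RNA subtracted the ratio was -1.78 for 24 h and -1.18 for 48 h, against -1.89 and -1.27 without this step.

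A list of 10 male-biased liver genes, Mup20 and Hsd3b5 among them, was low in the same libraries as Slco1a1. All 10 were past the fold downward in P14 and at 24 h, 9 at 48 h and 7 at 96 h, against 13.8%, 7.13%, 7.63% and 1.88% of all genes, with medians of -6.69, -1.43, -2.32 and -1.94. Of 12 female-biased genes, 7 reached 5 CPM in P14 or the control and all 7 were higher in P14 (7.89% of all genes), whereas 0 reached it in the comparisons after PHx. The part of sex or of the male-biased program in the Slco1a1 values was not tested. Its member Cyp7b1 is also in the list of bile acid synthesis below. The list was chosen with earlier results of these data known.

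Slco1a4 (OATP1A4), known to carry bile acids and digoxin, to be female-predominant and to answer to the receptors CAR and PXR, went the other way. It was at 90.6 CPM in P14 (88.3 to 92.9), 21.7 CPM in the control (19.3 to 24.4), and 57.2 (53.9 to 60.7), 24.0 (21.9 to 26.1) and 72.9 CPM (68.4 to 77.6) after PHx. The level at 48 h and that of the control had overlapping intervals, and the other 3 libraries stood above both. It was 4.17-fold higher in P14 (3.71 to 4.71), 2.64-fold at 24 h (2.32 to 3.01) and 3.36-fold at 96 h (2.94 to 3.84) than in the control. From 24 h to 48 h it was 2.39-fold lower (2.15 to 2.66) and from 48 h to 96 h 3.04-fold higher (2.73 to 3.40), 2 comparisons that do not use the control. At 5000 UMIs, 28.2% of P14 hepatocytes, 8.32% of the control's and 19.1%, 10.8% and 21.1% of those after PHx had a UMI, against at most 2.97% of leukocyte barcodes (the control).

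Slco1b2 (OATP1B2), the carrier of bilirubin glucuronides and many drugs, had the highest count of the members in every library. It was at 1280.5 CPM in P14, 1546 CPM in the control, and 1055, 855 and 825 CPM after PHx. The operated libraries were lower with time, with 96 h lowest of all, where Slc10a1 was highest. The 48 h and 96 h levels lay close together, and whether this step exceeds the spread between cells was not tested. The order by time did not hold in barcodes with under 10% mitochondrial UMIs, at 108, 66.1 and 97.2 CPM after PHx, where 48 h was lowest. The control was 1.47-fold higher than 24 h, 1.81-fold higher than 48 h and 1.87-fold higher than 96 h (1.83 to 1.92), so no library was past the fold in the cells chosen here. In cells with 10 to 20% mitochondrial UMIs all 3 operated libraries were (log2 ratios of -1.02, -1.12 and -1.52). From 85.1 to 98.2% of hepatocytes had a UMI at 5000 UMIs, against 83.5% of leukocyte barcodes in the control and 6.72 to 19.7% of those elsewhere. Control leukocyte barcodes were shallower than its hepatocytes (medians of 6705 against 18527 UMIs), so free RNA weighed more in them. They held 404 CPM of Slco1b2. In control hepatocytes the RNA of 1 empty droplet per barcode would give 13.5% of the Slco1b2 UMIs. Its counts spread more between cells than Poisson counting gives: the variance over the mean was 1.70 in P14, 2.51 in the control, 1.64 in the 24 h and 48 h libraries and 2.71 at 96 h, against at most 1.26 for any other member.

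**Figure D2:**
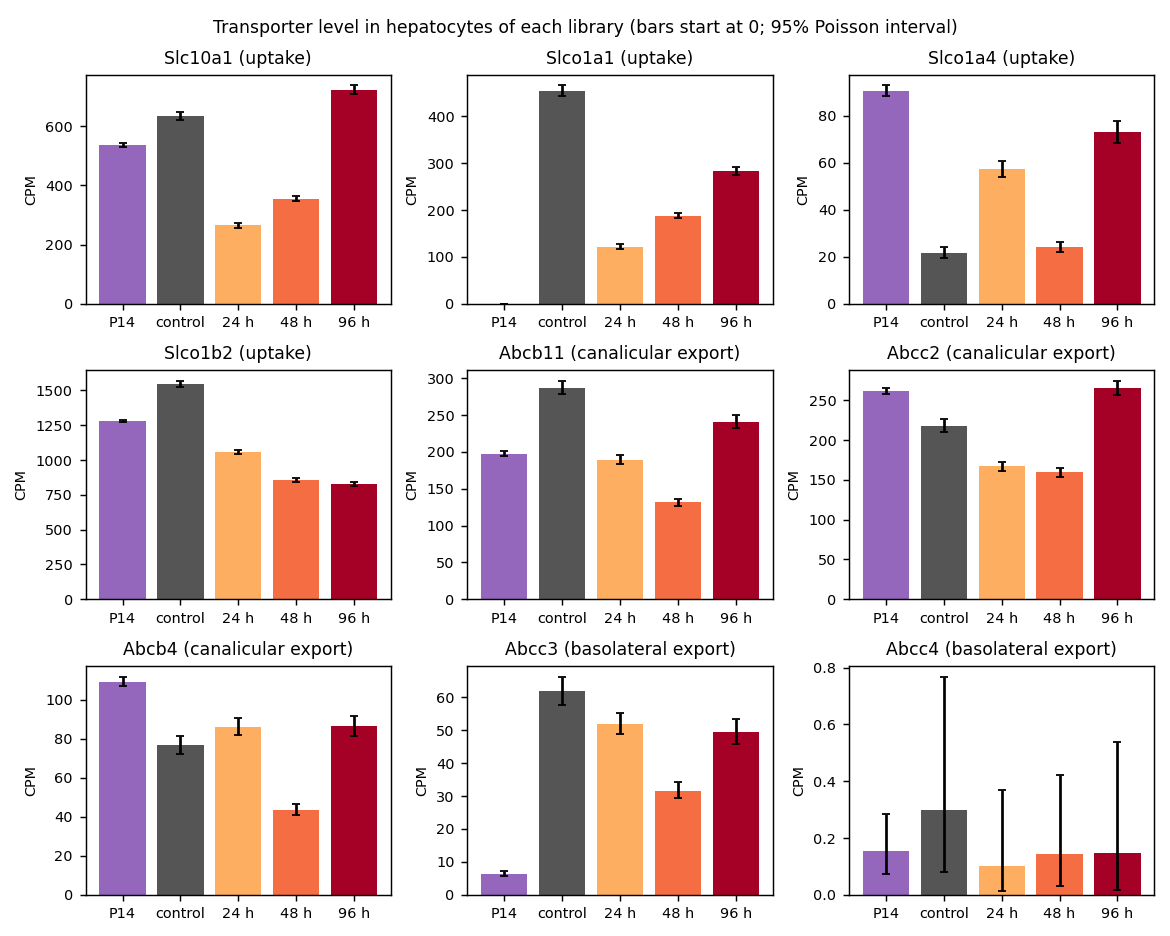
Level of each member (CPM, axes from 0) in the hepatocytes of the 5 libraries, with 95% Poisson intervals. Slco1a1 is near 0 in P14 and highest in the control, Slco1a4 is low in the control and at 48 h, and Abcc4 stays below 1 CPM in all 5 libraries.

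In the cells chosen here, the canalicular pumps spanned at most 2.51-fold between any of the 5 libraries (Abcb4, P14 against 48 h). In barcodes with under 10% mitochondrial UMIs each of the 3 spanned more: Abcb11 from 110 CPM in the control to 23.0 CPM at 48 h, Abcc2 from 81.6 CPM in P14 to 27.5 CPM at 24 h and Abcb4 from 55.2 CPM in P14 to 17.1 CPM at 96 h. Control leukocyte barcodes held 71.1 CPM of Abcb11, and the free RNA of the control 397 CPM. Abcb11 (ENSMUSG00000027048, chr2:69238282-69342616, minus strand), the bile salt pump and a classical FXR target, is shown by the 250 bases before its start site, since the data bear on FXR and its partners below.
Abcb11, chr2:69342617-69342866, minus strand: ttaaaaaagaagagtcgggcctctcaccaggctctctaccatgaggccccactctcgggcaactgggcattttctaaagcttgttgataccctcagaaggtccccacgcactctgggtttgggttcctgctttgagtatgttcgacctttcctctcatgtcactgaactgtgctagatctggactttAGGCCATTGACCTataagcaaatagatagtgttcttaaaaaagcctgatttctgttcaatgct
The capitals mark an IR-1 match that began 63 bases before the start site, with 1 base different. Abcb11 and Slco1b2 were the only members among the 8 with windows (10 windows) to hold one. Abcb11 was at 198 CPM in P14 (194 to 201), 287 CPM in the control (278 to 296), and 189 (183 to 196), 132 (127 to 137) and 241 CPM (233 to 249) after PHx. The control was highest and 48 h lowest, and P14 and 24 h had overlapping intervals. The control level was 1.51-fold that of 24 h (1.45 to 1.59), 2.18-fold that of 48 h (2.08 to 2.29) and 1.19-fold that of 96 h (1.14 to 1.25). In barcodes with under 10% mitochondrial UMIs all 3 were past the fold (log2 ratios of -1.86, -2.21 and -1.52, in place of -0.60, -1.12 and -0.25). The share of hepatocytes with a UMI at 5000 UMIs was 51.9% in P14, 64.9% in the control, and 50.9%, 40.8% and 57.3% after PHx, against 29.4% of leukocyte barcodes in the control and 2.02 to 7.66% elsewhere.

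Abcc2 (ENSMUSG00000025194, chr19:43782192-43840740, plus strand) is the conjugate pump, and no comparison put it past the fold in the cells chosen here. It was at 262 CPM in P14, 218 CPM in the control, and 167, 159 and 266 CPM after PHx. P14 and 96 h were highest with overlapping intervals, and 24 h and 48 h lowest, also overlapping. Its highest level was 1.67-fold its lowest. In barcodes with under 10% mitochondrial UMIs it was past the fold downward in all 3 operated libraries (-1.16, -1.09 and -1.08), which turned its direction at 96 h (0.28 in the cells chosen here). The control level in that set was 62.6 CPM, beside 44.2 CPM in its leukocyte barcodes and 227 CPM in its free RNA.

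Abcb4 (ENSMUSG00000042476, chr5:8893717-8959231, plus strand), the phospholipid pump, was at 109 CPM in P14, 76.7 CPM in the control, and 86.2, 43.6 and 86.5 CPM after PHx. Only 48 h lay below the control, at a control level 1.76-fold higher (1.61 to 1.92), and 24 h and 96 h overlapped. The ratios at 24 h and 96 h (both 0.17) turned to -0.16 and -0.34 with 10 to 20% mitochondrial UMIs and to -0.04 and -0.86 with under 10%, and 96 h was at -0.32 with Alb, Apoa1 and Ttr at 5% or more. From 48 h to 96 h it was 1.98-fold higher (1.82 to 2.16), just inside the 2-fold limit. For Abcb4, 8.41% of the 50-base words in the last 500 bases of its transcripts also occurred in other genes, and 1.55% for Slc10a1, so reads from there may have been counted for either gene or dropped.

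Of the pumps that export to blood, only Abcc3 (ENSMUSG00000020865, chr11:94343295-94392997, minus strand) was measured well. It was at 6.46 CPM in P14 (5.85 to 7.11), 62.0 CPM in the control (57.8 to 66.3), and 52.0, 31.6 and 49.6 CPM after PHx. P14 stood far below the adults, and among these 48 h was lowest while 24 h and 96 h overlapped. The control level was 9.59-fold that of P14 (8.52 to 10.8) and 1.96-fold that of 48 h (1.77 to 2.17). The ratio at 48 h was past the fold with 10 to 20% mitochondrial UMIs (-1.49) and near 0 with under 10% (0.07). Only 3.18% of P14 hepatocytes had a UMI at 5000 UMIs, against 9.46 to 17.5% of those of adults. Of leukocyte barcodes, 0 of 183 in P14 had one (exact upper limit 2.00%), and at most 4.61% in any library (the control).

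Abcc4 (ENSMUSG00000032849, chr14:118482692-118706219, minus strand) was barely detected in hepatocytes. It had 10 UMIs in P14, 4 in the control, and 2, 3 and 2 after PHx, or 0.10 to 0.30 CPM, where 3 counts stand for 0.0465 to 0.225 CPM. All its intervals overlapped with those of its neighbours, and no fold is given. Leukocyte barcodes held more, with 4.63 to 9.64 CPM (19 to 49 UMIs), and the 11 to 32 endothelial barcodes of a library held 14.3 to 87.1 CPM from 1 to 16 UMIs. No rise of Abcc4 in hepatocytes after PHx was detected, and the interval at 96 h had an upper bound of 0.538 CPM.

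Between time points after PHx, which do not use the control, 0 members were past the fold upward and 1 (Slco1a4) downward from 24 h to 48 h, against 1.78% and 1.76% of 8817 genes. From 48 h to 96 h, 2 were higher (Slc10a1 at 2.04-fold and Slco1a4) and 0 lower, against 4.38% and 4.24% of 8966 genes. The member median from 48 h to 96 h was 0.80 against 0.11 for all genes, and 7 of 8 members lay above 0, Slco1b2 (-0.05) being the exception. The share of all genes above 0 is not given, so this count sets the family apart in nothing. In barcodes with under 10% mitochondrial UMIs, Abcc3 (-0.74) and Abcb4 (-0.03) lay below 0 instead, and Slco1b2 was at 0.55. Slc10a1 was at the edge of the fold, with 2.04-fold (1.98 to 2.10), and 7 of 12 alternative settings kept it past it.

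Uptake and export were then set against each other within each library. UMIs of the kit mark the 3' end of a molecule, so a sum over genes is not scaled by length, but capture can differ between genes, and the shares are compared between libraries only. The uptake carriers held 76.8% (76.6 to 77.0) of member UMIs in P14, 80.5% (80.1 to 80.9) in the control, and 75.2% (74.7 to 75.6), 79.5% (79.1 to 79.9) and 74.8% (74.3 to 75.2) after PHx. The control and 48 h were highest, and 24 h and 96 h lowest with overlapping intervals. With all 9 members counted, this order did not hold in barcodes with under 10% mitochondrial UMIs, where 24 h (67.0%) and 48 h (70.1%) were lowest and 96 h was at 74.9%. Nor did it hold with Alb, Apoa1 and Ttr at 5% or more, where the control was at 74.4%, from 47 barcodes, and 96 h at 74.2%. Without Slco1a1, in the cells chosen here, the shares were 76.8%, 77.4%, 73.6%, 77.1% and 71.6%, which put 96 h alone at the bottom. The intervals of P14 (76.6 to 77.0), the control (76.9 to 77.8) and 48 h (76.7 to 77.6) then overlapped.

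Both sums behind these shares were below the control in the 24 h and 48 h libraries. Uptake carriers summed to 1908 CPM in P14, 2657 CPM in the control, and 1499, 1423 and 1905 CPM after PHx. Canalicular pumps summed to 569 CPM in P14, 582 CPM in the control, and 443, 335 and 593 CPM after PHx. At 96 h the canalicular sum was close to that of the control and the uptake sum was below it, whereas with under 10% mitochondrial UMIs all 3 canalicular pumps were below the control at 96 h (-1.52 for Abcb11, -1.08 for Abcc2 and -0.86 for Abcb4). Export to blood summed to 6.61 CPM in P14 and 62.3, 52.1, 31.8 and 49.7 CPM in the adults.

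Within uptake, the make-up shifted. Slco1b2 was 67.1% of uptake UMIs in P14, 58.2% in the control, and 70.4%, 60.1% and 43.3% after PHx, and Slc10a1 was 28.1%, 23.9%, 17.7%, 25.0% and 38.0% in the same order. At 96 h Slc10a1 took the largest and Slco1b2 the smallest part of the 5 libraries. With under 10% mitochondrial UMIs this place fell to 48 h, where Slc10a1 was 47.4% and Slco1b2 33.9%, against 41.8% and 35.6% at 96 h, with overlapping intervals for both genes. The ratio of the 2 bile salt carriers, Slc10a1 over Abcb11, was 2.72 in P14, 2.21 in the control, and 1.40, 2.70 and 3.00 after PHx, so the ratio was lowest at 24 h. With under 10% mitochondrial UMIs it was lowest in the control, at 1.03 (0.781 to 1.35), against 1.86 (1.46 to 2.38) at 24 h. In that control set the RNA of 1 empty droplet per barcode would give 75.7 of 110 Slc10a1 UMIs and 72.5 of 107 Abcb11 UMIs. The control ratio there may thus be largely that of free RNA, which was not tested.

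**Figure D3:**
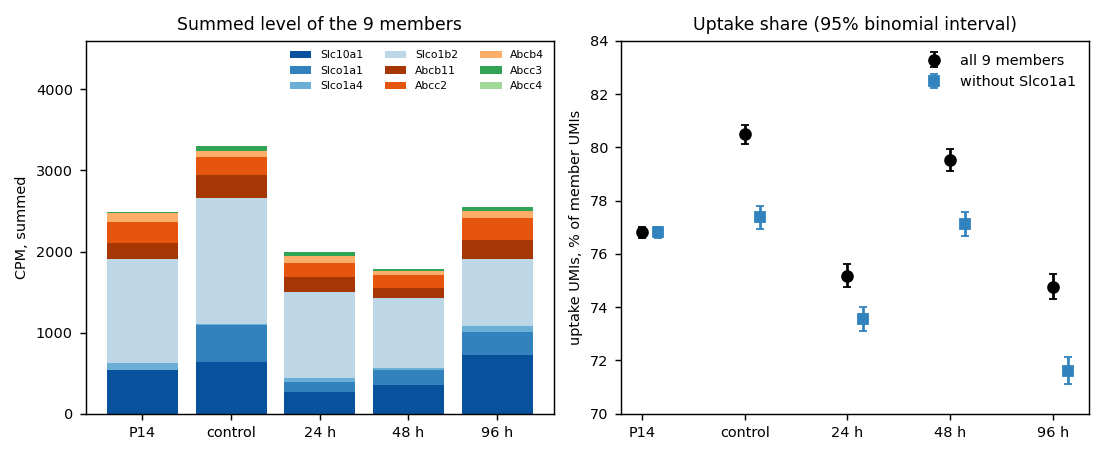
Left, summed level of the 9 members by library (stacked CPM, axis from 0). Right, uptake share of member UMIs with 95% binomial intervals, with and without Slco1a1, on an axis that starts at 70%. With all 9 members, the control (80.5%) and 48 h (79.5%) lie above P14 (76.8%), 24 h (75.2%) and 96 h (74.8%). Without Slco1a1 the intervals of P14, the control and 48 h overlap.

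Hepatocytes differ along the lobule from the portal to the central vein, so each library was cut into tertiles of a score, 12 pericentral minus 12 periportal genes, none of them a member. The tertiles are ranges of a score and not cell types: 99 to 327 cells of a library lay within 0.1 SD of a limit. Slco1b2 had the steepest gradient of the members in every library but 24 h, where Slco1a1 was steeper (log2 0.91 against 0.84). Its level from the periportal to the pericentral tertile went from 982 to 1612 CPM in P14 and from 906 to 2329 CPM in the control. After PHx it went from 780 to 1401 CPM (24 h), 563 to 1206 CPM (48 h) and 381 to 1355 CPM (96 h). It was higher in the pericentral tertile in all 5 libraries, by 2.57-fold in the control and 3.56-fold at 96 h, and the 96 h level was below the control in both outer tertiles. Depth differed between the tertiles at 96 h, with medians of 18901 UMIs in the periportal and 26035 in the pericentral one, and its part was not tested.

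Slco1b2 was the only member past the fold between these tertiles, in the control, at 48 h and at 96 h. The background share, in either direction, was 2.15% of all genes in P14, 2.93% in the control, and 4.03%, 3% and 6.08% after PHx. Slco1a1 was also higher in the pericentral tertile of each adult library, by 0.55 (log2) in the control and 0.91, 0.58 and 0.78 after PHx. Abcc2 was higher there by 0.38 in P14, 0.52 in the control and 0.63 at 96 h. At 24 h and 48 h (0.16 and 0.09) its outer tertiles had overlapping intervals. Slc10a1, Abcb11 and Abcb4 stayed between -0.35 and 0.19 in all libraries.

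Slco1a4 after PHx, and Abcc3 in the 24 h and 48 h libraries, had a gradient that ran the other way. The log2 ratio of Slco1a4, pericentral over periportal, was -0.05 in the control, 0.38 in P14, and -0.62, -0.41 and -0.61 after PHx, and its outer tertiles had overlapping intervals in the control and the 48 h library. Abcc3 was higher in the pericentral tertile of the control (52.2 to 79.8 CPM, log2 0.60) and lower there in the 24 h (66.4 to 37.1 CPM, -0.82) and 48 h libraries (39.4 to 23.9 CPM, -0.70). At 96 h it stood at 53.4 and 52.8 CPM. The outer tertiles of Abcc3 had separate intervals in the control and in the 24 h and 48 h libraries. The difference in slope between libraries was not tested.

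**Figure D4:**
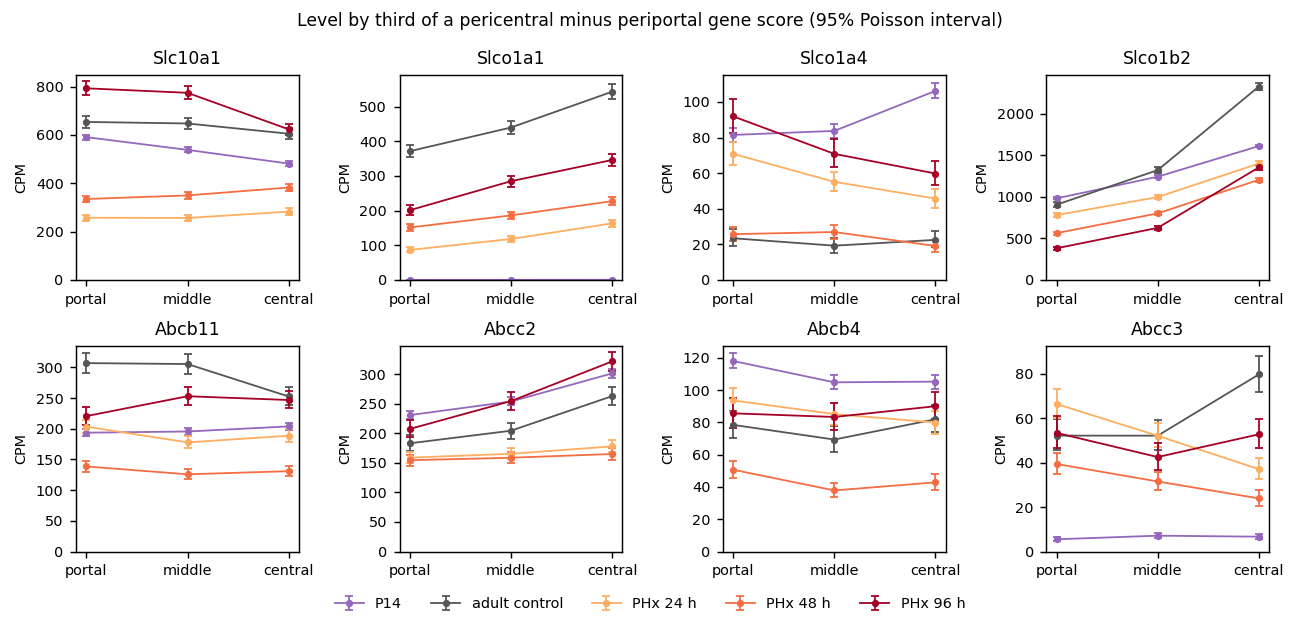
Level (CPM, axes from 0) of 8 members in the periportal, middle and pericentral tertile of the score, 1 line per library, with 95% Poisson intervals. Slco1b2 climbs toward the pericentral tertile in all 5 libraries, and Abcc3 falls toward it at 24 h and 48 h but climbs in the control.

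Cycling hepatocytes were those with at least 3 of 20 mitosis genes at 5000 UMIs, and non-cycling ones those with 0. There were 242 cycling cells in P14 and 175, 289 and 63 after PHx, and 5 in the control, too few to compare. No member was past the fold between cycling and non-cycling cells of a library, against 8.81% of all genes in P14 and 7.21%, 7.62% and 11.3% after PHx. The median gene counted was higher in cycling cells, at 0.24 (log2) in P14 and 0.12, 0.21 and 0.22 after PHx. Abcb11 was lower in cycling cells in all 4 libraries, at log2 ratios of -0.25 in P14 and -0.16, -0.50 (107 against 152 CPM) and -0.34 after PHx, with overlapping intervals at 24 h. Abcc2, at 0.18, 0.23 and 0.22 after PHx, was close to the median gene, also with overlapping intervals at 24 h, and it was lower in P14 (-0.20). The widest gap among these members was that of Slco1a1 at 48 h, with 143 CPM in cycling and 247 CPM in non-cycling cells (-0.78). After PHx cycling cells were deeper (medians of 42500 against 32861 UMIs at 48 h), and the part of depth was not tested.

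In non-cycling cells alone, the ratios over the control kept their sign for all 8 members in all 4 comparisons. Slco1a1 at 48 h was at -0.88 in place of -1.27 and Abcb11 at 48 h at -0.91 in place of -1.12, so both left the 2-fold range, and Abcc3 at 48 h entered it at -1.03 in place of -0.95.

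Genes around the members were taken from 5 lists. Over the control, 7.89% of all genes were past the fold upward and 13.8% downward in P14, 8.51%, 8.3% and 4.07% upward after PHx and 7.13%, 7.63% and 1.88% downward. Of 16 genes of bile acid synthesis and conjugation, 14 were counted: 2 were higher and 4 lower in P14. After PHx 0, 1 and 1 were higher and 5, 4 and 1 lower. Cyp7a1, the rate-limiting enzyme of the classical pathway, was the higher one in the 48 h and 96 h libraries, at 22.2 CPM in the control and 39.7, 197 and 171 CPM after PHx. Cyp8b1, which makes cholic acid, went from 195 CPM in the control to 42.4 and 35.3 CPM at 24 h and 48 h and was at 187 CPM at 96 h. Slc27a5, which activates bile acids for conjugation, was also past the fold downward at 24 h and 48 h (99.3 and 121 CPM against 286 CPM). In P14, Cyp7b1 (0.604 against 605 CPM) and Baat, which conjugates bile acids (45.8 against 234 CPM), were low. Cyp7b1 was also below the control after PHx, at 220, 139 and 139 CPM. Cyp7a1 was above the control in P14 too, at 70.2 CPM.

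Of 14 other export pumps and their partners, 10 were counted in P14 and 8 in the comparisons after PHx. Abcg5 and Abcg8, the canalicular sterol pump, and Abcc6 were the 3 lower ones at 24 h and at 48 h. Abcg8 was at 46.6 CPM in the control and 13.3, 10.5 and 38.3 CPM after PHx, and Abcc6 at 48.7, 14.1, 18.1 and 49.0 CPM. All 3 were past the fold upward from 48 h to 96 h (4.38% of all genes). In P14, 4 were higher and 0 lower, Abcg5 (101 against 25.1 CPM) among them. Of 12 other organic ion transporters, 11 were counted: 1 was higher and 5 lower in P14. After PHx 1, 1 and 0 were higher and 4, 3 and 0 lower. The higher one in the 24 h and 48 h libraries was Slc10a2, the apical bile acid carrier best known from the ileum, at 37.7 CPM in the control and 112, 91.4 and 61.2 CPM after PHx, against 0.124 CPM in P14. Slc22a30 was lower at 24 h and 48 h (102 and 128 against 345 CPM), as was the cation exporter Slc47a1 (16.1 and 22.2 against 51.4 CPM).

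Of 20 regulators, 19 were counted, with 3 higher and 2 lower in P14. After PHx 1, 1 and 1 were higher and 4, 4 and 0 lower. Nr1h4 (FXR) was at 67.7 CPM in P14, 70.7 CPM in the control, and 59.3, 47.8 and 79.3 CPM after PHx, within the fold throughout. Its target Nr0b2 (SHP) was between 25.4 and 29.6 CPM in the 4 adult libraries and at 67.8 CPM in P14. Nr1i3 (CAR) was at 155 CPM in P14, 47.7 CPM in the control, and 85.5, 61.8 and 40.4 CPM after PHx. Cebpa, a factor of mature hepatocytes, was at 352 CPM in the control and 72.5, 81.2 and 263 CPM after PHx, and Ppara was also lower at 24 h and 48 h (41.2 and 35.9 against 96.3 CPM). The higher ones after PHx were Ahr at 24 h and 48 h (88.1 and 43.8 against 18.9 CPM) and Onecut1 at 96 h (56.4 against 19.0 CPM). Of 16 genes of the apical membrane and its scaffold, 14 or 15 were counted and at most 1 passed the fold in either direction in any comparison, Slc9a3r1 in P14 (125 against 348 CPM) among them.

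**Figure D5:**
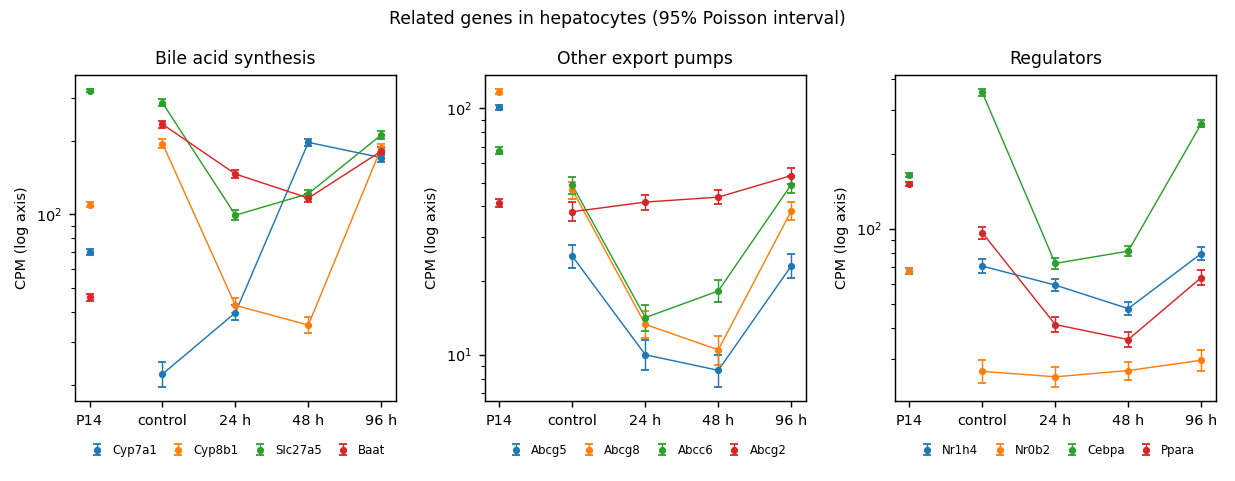
Level (CPM, log axis) of genes of bile acid synthesis, other export pumps and regulators in hepatocytes of the 5 libraries, with 95% Poisson intervals and lines joining the 4 adult libraries. Cyp7a1 is high at 48 h and 96 h, whereas Cyp8b1, Abcg5, Abcg8, Abcc6 and Cebpa dip in the 24 h and 48 h libraries. The P14 point of Nr1h4 lies under that of Nr0b2.

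The genes most like each member were sought over the 5 libraries by the root mean square difference of centred log2(CPM + 1) profiles among 6055 genes. The nearest to Slco1b2 were Cln8 (0.039), Fam234a (0.081) and Pck1 (0.10), and to Slc10a1 Fahd1 (0.091), Car8 (0.093) and Pipox (0.094). The nearest to Abcb11 were Etfrf1 (0.063), Crebl2 (0.070) and Ptgr2 (0.084), to Abcc2 Nfat5 (0.044), Mrpl9 (0.056) and Fxyd1 (0.058), and to Abcb4 Tbc1d24 (0.12). Abcc3 was closest to Aox1 (0.11), Slco1a4 to Gsta4 (0.31) and Slco1a1 to C6 (0.47). The difference is not scaled to a gene's own range, which was 8.60 (log2) for Slco1a1, 2.01 for Slco1a4 and 0.90 for Slco1b2. Its size is therefore not compared between members. Over 5 libraries such likeness is a description.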

How the data were processed

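Per the file headers, the authors deposited for each library a sparse matrix of raw UMI counts, 1 whole number for each gene in each barcode, written by software version 3.0.2. Per the submitters' processing notes, bcl2fastq 2.17.1.14, Cell Ranger and Seurat 3.1 were used with build mm10, and the annotation is not given in the sources used here. Empty droplets are still in the matrices. The labels do not say how many animals a library holds.

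Hepatocytes were selected by depth, mitochondrial share and markers, and counts were summed per library, divided by the UMIs outside 13 mitochondrial genes and expressed as CPM. Doublets were left in. In an alternative, Scrublet (scanpy 1.11.5, expected rate 6%) scored all barcodes of at least 5000 UMIs, hepatocytes or not. Its highest scores, 52 to 105 barcodes a library, were removed. This left 2045 hepatocytes in P14, 906 in the control, and 1159, 710 and 757 after PHx. Other alternatives were TMM factors (edgeR 4.0.16), free RNA subtracted (mean of barcode ranks 20001 to 60000), other limits on cells, a pseudocount of 10 CPM in place of 1, and single cells weighted equally. 2 were added after seeing the data: leaving out barcodes with 3 or more leukocyte or endothelial markers, and no marker minimum. The fold calls were tested on counts simulated for 24 h over the control with 200 genes changed 4-fold: 200 were called, and 0 of 8295 unchanged genes were. Both sets of counts were drawn from the control profile with counting error alone. The result therefore says nothing of false calls from differences between animals, libraries or free RNA, nor of changes near 2-fold. No statistical test was made, since each group has 1 library. Python 3.11.15, numpy 2.4.6, scipy 1.17.1 and R 4.3.3 were used.

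The members and lists were chosen with earlier results of these data known. Named genes outside the members were those at 20 CPM or more in either library and at least 2-fold apart, at most 5 per list and comparison, with Cyp7a1, Nr1h4, Nr0b2 and Nr1i3 always, and the 3 genes most like each member.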

Additional observations from a re-analysis of the deposited data

How the results depend on the processing

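No paired analysis was possible because each group has 1 library. The count of members past 2-fold in P14 was 3 under all 13 alternatives. For 24 h over the control it was 5 in place of 3 in barcodes with under 10% mitochondrial UMIs, all 5 lower, and 4 with 10 to 20%, against 41.3% and 20.4% of all genes past the fold in either direction (15.6% in the cells of the report). For 48 h over the control it was 6 with 10 to 20% and 4 with under 10% in place of 2, and for 96 h 2 and 4 in place of 1. The share of all genes was 21.6% and 39.1% at 48 h (15.9% in the cells of the report), and 15.7% and 27.0% at 96 h (5.95%). From 24 h to 48 h it was 0 in place of 1 with a pseudocount of 10 CPM, and with under 10% the 1 member was Abcc3, upward. From 48 h to 96 h it was 1 in place of 2 with CPM over all UMIs, with TMM and with 10 to 20%, 0 with under 10%, and 3 with free RNA subtracted, where Abcb4 (1.00) was added; Abcb4 was also past the fold with each cell weighing the same, where Slc10a1 was not (0.98). The 1 reversal of a called ratio was Slco1a4 at 24 h (-0.15 with under 10%). The uptake share with 10 to 20% was 75.6% in P14, 82.0% in the control, and 74.1%, 79.0% and 73.7% after PHx in time order. With under 10% it was 72.0% in P14, 79.3% in the control, and 67.0%, 70.1% and 74.9% after PHx, so that 96 h was no longer lowest. With each cell weighing the same it was 77.6% in P14, 80.9% in the control, 76.4% at 24 h and 80.9% at 48 h. Without Slco1a1 it was 77.4% in the control and 73.6%, 77.1% and 71.6% after PHx. With Alb, Apoa1 and Ttr at 5% or more it was 74.4% in the control, from 47 barcodes, and 74.2% at 96 h; at 24 h and 48 h under 20 barcodes were left, so no value was made. The cause of these shifts was not tested. Abcc4 in all libraries (2 to 10 UMIs) and Slco1a1 in P14 (11 UMIs) rest on few counts.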
